A study of Mus musculus with 2 samples.

Results

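Gluconeogenesis, the making of glucose from lactate, glycerol and amino acids, was followed in newborn mouse liver through 9 genes. The set held the enzymes of its committed steps (Pcx, Pck1, Pck2, Fbp1 and G6pc), the glucose-6-phosphate transporter Slc37a4, the transaminases Got1 and Gpt, and the coactivator Ppargc1a. They were chosen by name as genes of the pathway, and each symbol matched 1 of the 69594 endogenous features in the gene tables and 21 listed transcripts in all. Livers came from pups of the B6NCrl strain at postnatal day 0 (age 0 days), with no treatment, transgene or contrast in the labels, so all values describe 1 group of 2 libraries, from pup 1 and pup 3. Each library was made from 13 pg of tissue RNA longer than 200 nt, the amount in 1 cell-equivalent, and spike-in RNAs were added.

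Before birth the placenta delivers glucose to the fetus, and the liver takes over once the cord is cut. Glucagon then rises and insulin falls, and the gene for cytosolic phosphoenolpyruvate carboxykinase is switched on through cAMP signalling. The pathway reverses glycolysis except at its irreversible steps, where pyruvate carboxylase with phosphoenolpyruvate carboxykinase, fructose-1,6-bisphosphatase and glucose-6-phosphatase act instead.

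The libraries held 56959836 (pup 1) and 35973980 (pup 3) expected counts, which are estimated reads per gene, and 3.76% and 3.28% of these came from spike-ins. Levels are in TPM (transcript abundance corrected for length) with spike-ins removed and the rest rescaled to a total of 1000000. Listed hepatocyte markers were all present in both libraries and held 14.7% of TPM in pup 1 and 11.5% in pup 3, and erythroid markers held 13.3% and 16.4%. Pck1 is also expressed in kidney, intestine and fat. The 4 kidney tubule and 3 pancreatic islet markers had no counts in either library, and Fabp2 (59.0 and 53.8 TPM) and Fabp4 (120 and 73.3 TPM) were the only intestinal and adipose markers with counts. These are levels of whole tissue, where fewer cells of a type and less RNA per cell cannot be told apart. The labels give both livers the same donor entry, and differences between animals and between library preparations cannot be told apart either. The markers of each type went both ways. Of the 6 hepatocyte markers, Alb (14549 and 17480 TPM) and Ttr (2623 and 3175 TPM) were higher in pup 3 and the other 4 lower, with Trf (64244 and 42243 TPM) and Ahsg (32190.1 and 21893 TPM) making up most of the fall in the sum. Among the erythroid markers, the 4 globin genes were higher in pup 3 and Alas2 (642 and 498 TPM) and Slc4a1 (508 and 449 TPM) lower. Whether these marker differences have a part in the differences given here was not tested.

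The 9 genes together held 0.549% of TPM in pup 1 and 0.574% in pup 3 (0.561 ± 0.0176%, SD, n = 2). The sum differed little while its members differed in both directions. Fbp1 made up 47.7% of the sum in pup 1 and 59.5% in pup 3. The 4 enzymes of the irreversible steps other than Pck2 (Pck1, Pcx, Fbp1 and G6pc) made up 74.8% and 85.4%. At 1 TPM or more, 7 of the 9 members passed in both libraries. Among the 7678 features that passed in at least 1 library, 46.3% passed in both. Gpt and Pck2 were each detected in 1 library.

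**Figure D1:**
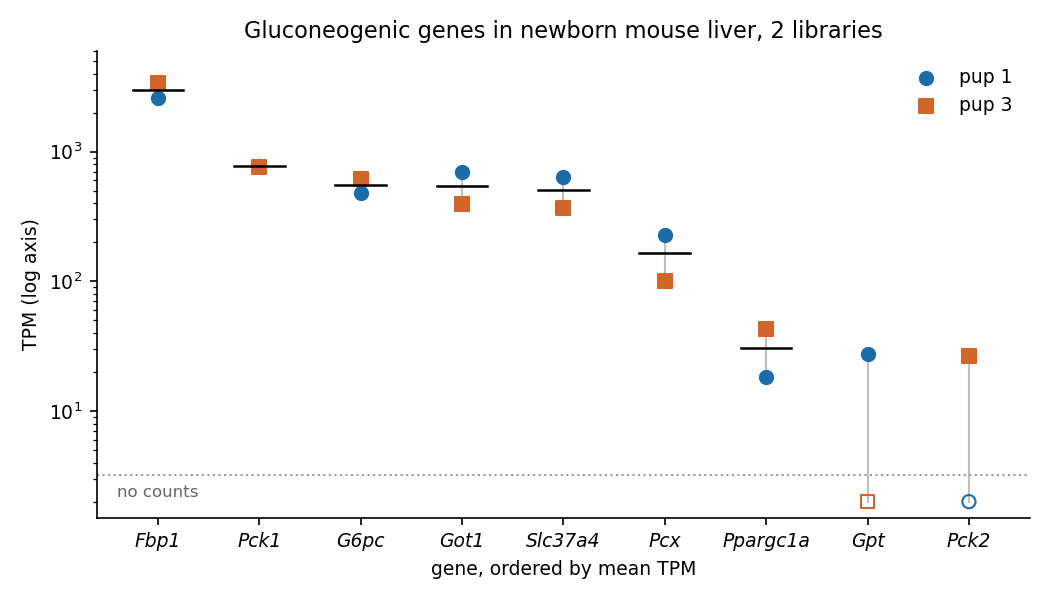
TPM on a log axis for the 9 genes in pup 1 (circles) and pup 3 (squares), with a bar at the mean of the 2 libraries where both had counts, and open symbols under the dotted line for no counts. Fbp1 stands above all others in both pups, Pck1 is nearly equal in both, and Gpt and Pck2 each lack counts in 1 pup.

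Pyruvate carboxylase (Pcx, chromosome 19, 4510472 to 4621752, GRCm38, plus strand) turns pyruvate into oxaloacetate inside mitochondria. It had 228 TPM in pup 1 against 99.9 TPM in pup 3, from 38479 and 11538 expected counts. The level in pup 1 was 2.29-fold the level in pup 3, the widest gap among the 6 enzyme and transporter genes counted in both libraries. Scaled to spike-in totals instead of total TPM, the fold was 1.84.

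Pcx had 2 listed transcripts, which in GENCODE M21 start 83.874 kb apart and encode proteins of nearly equal length (1179 and 1178 codons). Pcx-201, from the upstream start, had 107 TPM in pup 1 against 30.7 TPM in pup 3. Pcx-202, from the downstream start, had 121 and 69.1 TPM. The downstream start thus carried 53.1% of the gene's TPM in pup 1 and 69.2% in pup 3 (61.2 ± 11.4%). In pup 1 the deposited credibility bounds of the transcripts overlapped (85.8 to 106 TPM for Pcx-201 and 105 to 125 TPM for Pcx-202, spike-ins included in the total). In pup 3 they did not (24.0 to 33.7 and 58.9 to 69.0 TPM). The deposited Pcx-202 model has 4125 nt and the M21 model 4044 nt, so its start and coding length are those of a revised model. Lrfn4, a gene on the opposite strand inside Pcx, had no counts in either library.

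Because the libraries split Pcx reads over separate start sites, the RefSeq windows near each are shown with that of Pck1, the gene whose level was steadiest. RefSeq windows of 250 bases before a start site (GRCm38.p6) were listed for all members but Gpt, 11 windows in all. Bases that lie inside a GENCODE M21 transcript from a start within the window were left out of what is printed. Capitals mark TGACG, the core of the cAMP response element, and CCAAT, each on either strand (CGTCA and ATTGG when reversed).
Pck1, chr2:173152823-173153047, plus strand: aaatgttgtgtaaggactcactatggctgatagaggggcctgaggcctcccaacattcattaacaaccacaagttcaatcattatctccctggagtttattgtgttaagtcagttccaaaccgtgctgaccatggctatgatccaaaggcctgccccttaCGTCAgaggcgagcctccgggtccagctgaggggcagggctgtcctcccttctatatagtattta
Pcx, upstream start, chr19:4510222-4510471, plus strand: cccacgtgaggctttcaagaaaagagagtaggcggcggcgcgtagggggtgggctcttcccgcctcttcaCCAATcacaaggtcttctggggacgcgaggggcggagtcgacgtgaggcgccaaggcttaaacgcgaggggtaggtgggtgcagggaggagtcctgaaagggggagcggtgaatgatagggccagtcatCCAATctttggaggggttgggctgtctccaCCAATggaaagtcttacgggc
Pcx, downstream start, chr19:4594069-4594318, plus strand: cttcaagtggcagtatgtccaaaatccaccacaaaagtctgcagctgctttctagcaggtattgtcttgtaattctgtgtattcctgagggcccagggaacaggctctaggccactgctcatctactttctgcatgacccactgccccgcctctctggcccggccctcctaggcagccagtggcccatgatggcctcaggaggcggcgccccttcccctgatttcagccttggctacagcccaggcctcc
The Pck1 window held TGACG once, on the reverse strand, 90 to 86 bases before the RefSeq start. The upstream Pcx window ends at the base before the start of Pcx-201 (4510472). The downstream one ends before a RefSeq start at 4594319, while Pcx-202 starts further on in M21, at 4594346. The start of the longer deposited model is not known, so the window may not lie directly upstream of the counted transcript. The upstream Pcx window held CCAAT 3 times and the downstream window held neither motif. Among the 11 windows, 4 held TGACG (Pck1, Ppargc1a and a pair of overlapping Slc37a4 windows that share a match) against 17.8% of all 32851 windows of that length. CCAAT was in 5 of 11 against 33.8% of all windows, and TATAAA in 2 (G6pc and Slc37a4) against 12.4%. Matches were counted over whole windows, with the bases inside M21 transcripts kept. Both TATAAA matches and the Slc37a4 TGACG matches lie in such bases. The full element TGACGTCA was in 0 of 11 and in 1.55% of all windows, and the forkhead core TGTTTAC in 0 of 11 and in 3.17%. The Slc37a4 windows that held the core of the cAMP response element lie before RefSeq starts 44396946 and 44397099. The only listed Slc37a4 transcript starts further on in M21, 44398176, inside the window before RefSeq start 44398354. That window did not hold the core. The Ppargc1a window belongs to an upstream start with 1.74% of the gene in pup 1 and 1.35% in pup 3. A match of letters is a description of the window and no measurement of binding.

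Cytosolic phosphoenolpyruvate carboxykinase (Pck1, chromosome 2, 173153048 to 173159273) makes phosphoenolpyruvate from oxaloacetate and is the classic hormone-controlled step of the pathway. It had 781 TPM in pup 1 against 767 TPM in pup 3, from 80577 and 54423 expected counts. From counting error alone, the 95% Poisson intervals were 776 to 786 TPM and 760.5 to 773 TPM. The libraries differed by 1.02-fold, the smallest gap of the 9 genes. With scaling to spike-in totals the fold was 1.22, with pup 3 higher. Its rank among endogenous features was 140 in pup 1 and 149 in pup 3.

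Nearly all Pck1 TPM lay on the full-length transcript of 2661 nt, with 731 TPM in pup 1 against 730.5 TPM in pup 3. The minor transcripts differed between the libraries. A 1211 nt form of 2 exons, annotated as retaining an intron, had 48.7 TPM in pup 1 against 0.795 TPM in pup 3. A 734 nt noncoding form had no counts in pup 1 and 33.1 TPM in pup 3. The protein-coding share was 93.6% in pup 1 and 95.3% in pup 3.

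The mitochondrial isoenzyme Pck2 (chromosome 14, 55540266 to 55551242) had no counts in pup 1 and 2533 in pup 3, where it stood at 26.8 TPM. Against a floor of 3 counts in pup 1 it was at least 1230-fold higher in pup 3. In pup 3 the cytosolic form exceeded it 28.6-fold. With both forms added, carboxykinase transcripts came to 781 TPM in pup 1 against 794 TPM in pup 3. The antisense gene Gm10876 overlaps Pck2 in GENCODE M21 and was not listed in the deposited tables, so reads from it could not be assigned to it.

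Absence of a gene at the level of Pck2 from 1 library was common. At a mean of 10 to 30 TPM, where Pck2 and Gpt lie, 50.6% of 2485 features had no counts in 1 library. Of the 19 spike-ins at 10 to 100 TPM in either library, spike-ins included in the total, 11 were under 1 TPM in 1 library. At 300 to 1000 TPM, where Pck1, G6pc, Got1 and Slc37a4 lie, 0 of 316 features had no counts in 1 library, and at 100 to 300 TPM, where Pcx lies, 1.18% had none. At 30 to 100 TPM, where Ppargc1a lies, 13.9% had none.

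Fructose-1,6-bisphosphatase 1 (Fbp1, chromosome 13, 62864753 to 62888282, minus strand), the liver form of the enzyme that removes a phosphate from fructose-1,6-bisphosphate, led the set in both libraries. It had 2615 TPM in pup 1 against 3411 TPM in pup 3, and ranked 47 and 34 among endogenous features. Pup 3 was 1.30-fold higher. Fbp1 exceeded Pck1 by 3.35-fold in pup 1 and 4.45-fold in pup 3. Its ratio to G6pc was 5.43 and 5.50.

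Fbp1 was counted on 3 transcripts. The full-length transcript of 1479 nt and 338 codons had 2377 TPM in pup 1 against 2843 TPM in pup 3. A 612 nt form of 3 exons, which starts inside the gene and has 133 codons, had 236 TPM and 565 TPM. Its share of the gene was 9.01% in pup 1 and 16.6% in pup 3, and the deposited credibility bounds of its level did not overlap (197 to 237 and 496 to 555 TPM, spike-ins included in the total). Each pair of bounds comes from 1 library and does not measure the spread between pups or preparations. A transcript annotated for nonsense-mediated decay had 3.07 and 2.34 TPM. The muscle isoenzyme Fbp2 had no counts in either library.

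Glucose is released by a transporter and an enzyme that work in series at the endoplasmic reticulum. Slc37a4 carries glucose-6-phosphate into its lumen and the catalytic subunit G6pc cuts off the phosphate there. G6pc (chromosome 11, 101367561 to 101377903) had 481 TPM in pup 1 against 620.2 TPM in pup 3. Slc37a4 (chromosome 9, 44396852 to 44402968) had 641 TPM in pup 1 against 369.9 TPM in pup 3. The order of the pair differed between the libraries. Slc37a4 was 1.33-fold the level of G6pc in pup 1, and G6pc was 1.68-fold the level of Slc37a4 in pup 3. Between the libraries, G6pc was 1.29-fold higher in pup 3 and Slc37a4 was 1.73-fold higher in pup 1. Such a ratio within a library does not depend on how libraries are scaled.

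The deposited tables list a single transcript for each of the pair, so start sites of Slc37a4 could not be compared. In GENCODE M21 the counted Slc37a4 transcript starts at 44398176 and has 429 codons, in a model of 2086 nt against 2083 nt deposited. The microRNA gene Mir7085 lies inside Slc37a4 and had no counts in either library. Of the other phosphatase subunits, the islet form G6pc2 and the widely expressed G6pc3 had no counts in either library. Among the relatives of Slc37a4, Slc37a1 had 22 expected counts in pup 3 alone, Slc37a3 had 1 in pup 1 alone, and Slc37a2 had none in either.

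The transaminases feed carbon from amino acids into the pathway. Cytosolic aspartate aminotransferase (Got1, chromosome 19, 43499752 to 43524605, minus strand), which interconverts aspartate and oxaloacetate, had 693 TPM in pup 1 against 398 TPM in pup 3, a 1.74-fold gap. The mitochondrial form Got2 had 190 TPM in pup 1 against 255 TPM in pup 3, in the opposite order. Got1 exceeded Got2 by 3.65-fold in pup 1 and 1.56-fold in pup 3. The full-length Got1 transcript held 99.3% and 99.2% of the gene.

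Alanine aminotransferase (Gpt, chromosome 15, 76695716 to 76699686), which turns alanine into pyruvate, had 1893 expected counts and 27.5 TPM in pup 1 but no counts in pup 3. It was at least 433-fold higher in pup 1 against a floor of 3 counts in pup 3. The mitochondrial relative Gpt2 had the opposite pattern, with no counts in pup 1 and 2.68 TPM in pup 3. Got1l1, a relative of Got1, had no counts in pup 1 and 8.95 TPM in pup 3.

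Ppargc1a (chromosome 5, 51454250 to 51567726, minus strand) encodes PGC-1alpha, a coactivator that raises transcription of gluconeogenic genes in fasting liver. It had 18.3 TPM in pup 1 against 42.6 TPM in pup 3, a 2.32-fold gap in a gene of similar expected counts (4789 and 4162). As CPM (counts scaled to 1000000 per library, with no length correction) it had 87.4 in pup 1 and 120 in pup 3, and the fold was 1.37. The difference between the scales follows from the transcripts to which the reads were assigned, since TPM divides by their length.

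The leading Ppargc1a transcript differed between the libraries. The 6464 nt Ppargc1a-203, which encodes 797 codons, had 18.0 TPM in pup 1 against 9.54 TPM in pup 3. The 2698 nt Ppargc1a-201 had 0.0214 TPM in pup 1 against 32.5 TPM in pup 3. In pup 1 the long form held 98.1% of the gene, and in pup 3 it held 22.4% while Ppargc1a-201 held 76.2%. GENCODE M21 gives Ppargc1a-201 a coding region of 270 codons, annotates it for nonsense-mediated decay and draws it at 3041 nt, so the model has changed since the tables were made. A truncated coactivator made by alternative splicing of this gene is known, and the tables do not show whether these reads encode it. Among the 5 members with 2 or more listed transcripts, 1 had a transcript whose share differed by 50 points or more, namely Ppargc1a. Over the 1708 such genes that had 1000 or more expected counts in each library, 15.9% did. The leading transcript differed in 1 of the 5 members and in 23.7% of those genes. Over genes with 10000 or more expected counts in each library, a class that holds the other 4 members and not Ppargc1a, the shares were 2.06% and 11.5%. The 4 genes annotated inside Ppargc1a in M21 (Gm42613, Gm42614, Gm42615 and Gm43605) were not listed in the tables.

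**Figure D2:**
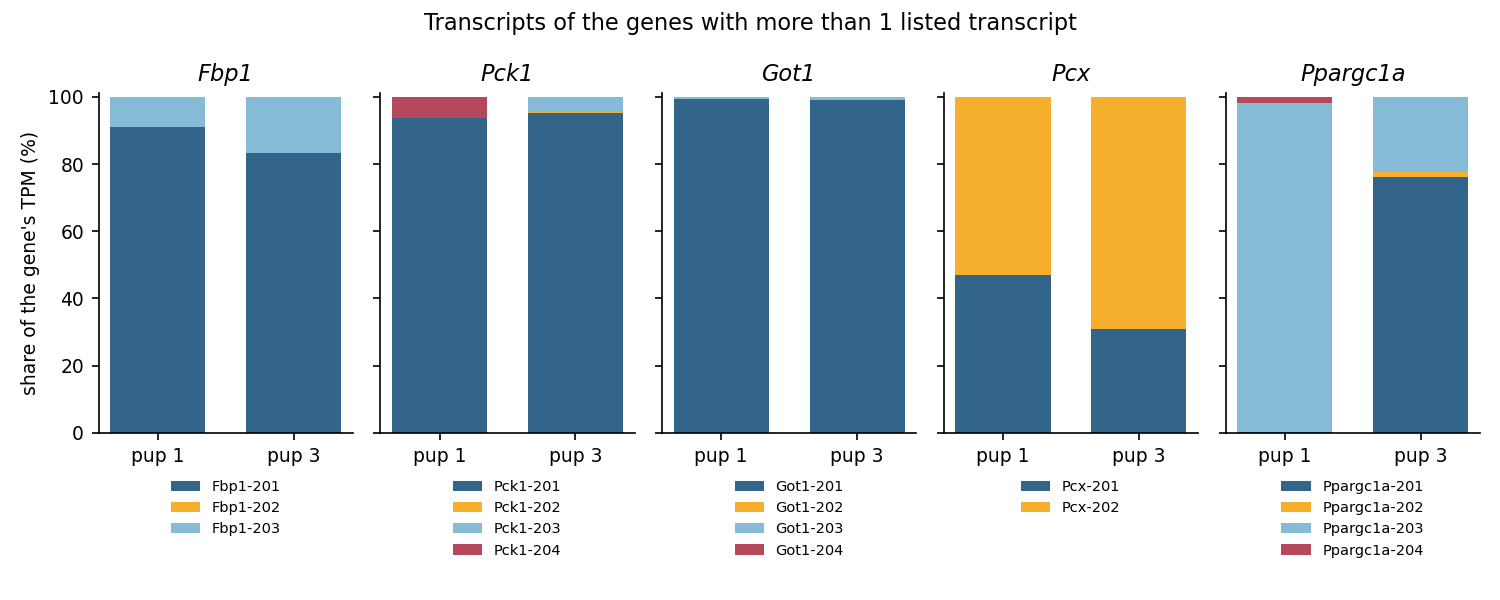
Share of each gene's TPM (%) by transcript, for the 5 genes with more than 1 listed transcript, in pup 1 and pup 3. Fbp1, Pck1 and Got1 rest on 1 full-length transcript in both pups, Pcx leans to Pcx-202, and Ppargc1a goes from 98.1% on Ppargc1a-203 in pup 1 to 76.2% on Ppargc1a-201 in pup 3.

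In GENCODE M21 both leading Ppargc1a transcripts begin near the same start. The deposited models of Ppargc1a-201, Ppargc1a-202 and Ppargc1a-204 had other lengths (2698, 413 and 848 nt, against 3041, 488 and 2452 nt in M21). The starts of the counted models may thus differ from those given here. The alternative upstream start in M21, 13.804 kb away, was represented by Ppargc1a-202 and Ppargc1a-204, which together held 1.74% of the gene in pup 1 and 1.35% in pup 3 (9.98 and 5.18 expected counts). The RefSeq window for the gene belongs to that little-counted upstream start, and it is shown because it held TGACG, 49 to 45 bases before the start on the reverse strand.
Ppargc1a, upstream start, chr5:51567727-51567975, minus strand: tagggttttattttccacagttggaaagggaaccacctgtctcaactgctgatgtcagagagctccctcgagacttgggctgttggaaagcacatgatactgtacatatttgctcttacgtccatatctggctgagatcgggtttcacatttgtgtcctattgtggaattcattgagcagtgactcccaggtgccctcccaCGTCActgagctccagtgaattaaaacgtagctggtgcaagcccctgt
The related coactivators differed in direction as well. Ppargc1b had 37.6 TPM in pup 1 against 15.9 TPM in pup 3, so Ppargc1a stood at 0.488 of its level in pup 1 and 2.67 times its level in pup 3. Pprc1 had no counts in pup 1 and 17.8 TPM in pup 3.

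Of 11 isoenzymes and relatives of the members, 2 were detected in both libraries, 3 in pup 3 alone and 6 in neither, 4 of them with no counts at all. That is 2 of the 5 detected in either library, against 46.3% of all features. A ratio past 2-fold, with a mean of at least 10 expected counts, was found for 4 with pup 3 higher (background 36%) and 1 with pup 1 higher (background 38.5%) among 6. Their median log2 ratio was 1.15, and 4.62 with absent genes at the floor.

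Ordered by mean TPM, the genes ran Fbp1 (3013 ± 563), Pck1 (774 ± 9.91), G6pc (551 ± 98.1), Got1 (545 ± 208), Slc37a4 (506 ± 192), Pcx (164 ± 90.8), Ppargc1a (30.5 ± 17.2), Gpt (13.7 ± 19.4) and Pck2 (13.4 ± 18.9), each as mean ± SD with n = 2. Of the 8 neighbouring pairs, 4 had ranges that did not overlap. Fbp1 lay above Pck1, Pck1 above G6pc, Slc37a4 above Pcx, and Pcx above Ppargc1a in every cross of the libraries. G6pc, Got1 and Slc37a4 could not be ordered beyond their spread, nor could Ppargc1a, Gpt and Pck2.

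The difference between the libraries was then set beside that of all genes, with a ratio past 2-fold as the limit. Past it were 4 of the 9 members (background 74.5%), read against 8120 genes whose mean expected count was 10 or more. The background was 73.9% over all features detected in either library and 44.4% over those with 100 or more expected counts in each. Pck2 and Ppargc1a were higher in pup 3 (2 of 9, background 36%), and Pcx and Gpt were higher in pup 1 (2 of 9, background 38.5%). The share falls with abundance, and the members lay mostly where it is low. At 300 to 1000 TPM, 0 of 4 members and 22.8% of genes were past 2-fold. Fbp1, within 2-fold, stood among genes of 1000 TPM or more, of which 14.6% were past it. Pcx, past 2-fold, stood at 100 to 300 TPM, where 40.9% were. Ppargc1a, past 2-fold in TPM, stood at 30 to 100 TPM, where 58.4% were. Gpt and Pck2 stood at 10 to 30 TPM, where 89.2% were. The median log2 ratio (pup 3 over pup 1) was -0.03 over the members and -0.04 over all genes on log2(TPM + 1), a scale that understates differences of low genes. With genes lacking counts in 1 library at the floor it was -0.03 and -0.07.

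**Figure D3:**
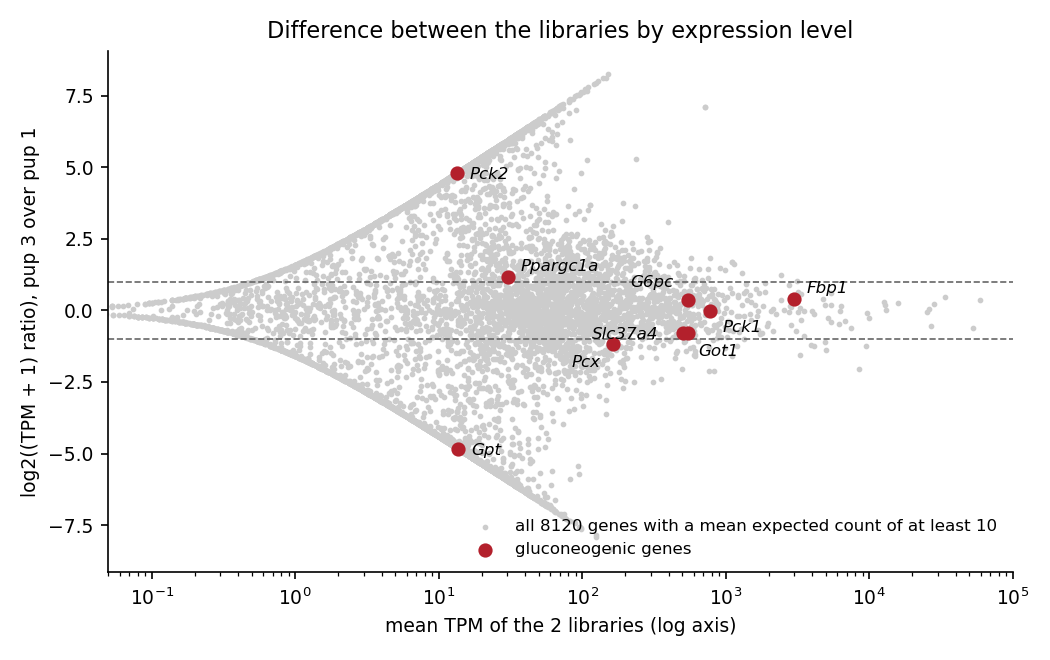
Log2 ratio of TPM + 1 (pup 3 over pup 1) against mean TPM on a log axis, for all 8120 genes with a mean of at least 10 expected counts (grey) and the 9 gluconeogenic genes (red), with dashed lines at 2-fold. Genes without counts in 1 library form the outer edges, where Pck2 and Gpt lie, and the 5 members of 300 TPM or more lie between the dashed lines.

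The reversible enzymes that gluconeogenesis shares with glycolysis were all detected, 8 of 8 in both libraries (background 46.3%) and 0 past 2-fold (background 74.5%). All 8 had mean levels above 100 TPM. There, few features lacked counts in 1 library (1.18% at 100 to 300 TPM), and the background past 2-fold is lower, as given above by level. The dehydrogenase Gapdh had 1066 TPM in pup 1 against 1726 TPM in pup 3, the enolase Eno1 743 and 957 TPM, and the phosphoglucose isomerase Gpi1 530.3 and 336 TPM. The list's median log2 ratio was -0.23.

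Of 18 genes that bring in lactate, glycerol or amino acid carbon, 14 were detected in both libraries, 3 in pup 1 alone and 1 in pup 3 alone (background detected in both 46.3%). Lactate dehydrogenase A (Ldha), which turns lactate into pyruvate, led with 2118 TPM in pup 1 against 2180 TPM in pup 3. The subunits of the mitochondrial pyruvate carrier were both higher in pup 3. Mpc1 had 404 and 830.1 TPM, and Mpc2 had 126 and 577 TPM. Tyrosine aminotransferase (Tat), a hormone-induced enzyme, had 413 and 361 TPM. The background of 46.3% covers features of all levels. At 300 to 1000 TPM, where the means of Mpc1, Mpc2 and Tat lie, 0 of 316 features had no counts in 1 library. Past 2-fold were 6 of 18 genes with pup 3 higher (background 36%) and 5 with pup 1 higher (background 38.5%), and the median log2 ratio was -0.10.

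Of 8 genes that move oxaloacetate equivalents between mitochondria and cytosol, 7 were detected in both libraries (background 46.3%) and 1 was past 2-fold each way (background 36% with pup 3 higher and 38.5% with pup 1 higher), with a median log2 ratio of 0.03. The malate dehydrogenases differed in opposite directions, with 418 TPM in pup 1 against 308 TPM in pup 3 for the cytosolic Mdh1 and 286 and 383 TPM for the mitochondrial Mdh2. The oxoglutarate carrier Slc25a11 had 307 and 122 TPM. The background of 46.3% covers features of all levels. At 100 to 300 TPM, where the means of Slc25a11 and Got2 lie, 1.18% of features had no counts in 1 library. At 300 to 1000 TPM, where those of Mdh1 and Mdh2 lie, 0 of 316 lacked them. The citrate carrier Slc25a1, chosen after its values were seen, had no counts in pup 1 and 74.0 TPM in pup 3.

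The glucose transporter of hepatocytes, Slc2a2, had 136 TPM in pup 1 against 74.1 TPM in pup 3, a 1.84-fold gap, with pup 1 higher as for Slc37a4. Slc2a1, the transporter of red cells and many fetal tissues, had 6.86 TPM in pup 1 but no counts in pup 3. Slc2a3 had 0.0750 and 38.7 TPM, and the muscle and fat transporter Slc2a4 had no counts in either library.

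Of 23 genes of hormone signalling and transcriptional control, 7 were detected in both libraries, 7 in pup 1 alone, 1 in pup 3 alone and 8 in neither. The 7 of 15 detected in either library are near the background of 46.3%. Igfbp1, an insulin-repressed and fasting-induced secreted protein, led with 2659 TPM in pup 1 against 2951 TPM in pup 3. The liver cAMP-responsive factor Creb3l3 had 178 and 169.7 TPM, the protein kinase A subunit Prkar1a 164 and 156 TPM, and the fasting receptor Ppara 29.0 and 244 TPM. The glucagon receptor Gcgr (42.2 TPM) and the glucocorticoid receptor Nr3c1 (61.5 TPM), both named after their values were seen, had counts in pup 1 and none in pup 3. Creb1, the factor that binds the cAMP response element, also named after its values were seen, had no counts in either library. Past 2-fold were 4 genes with pup 3 higher (background 36%) and 7 with pup 1 higher (background 38.5%) among the 16 with a mean of at least 10 expected counts, together near the background of 74.5%. Their median log2 ratio was -0.13, and -0.48 with genes lacking counts in 1 library at the floor.

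**Figure D4:**
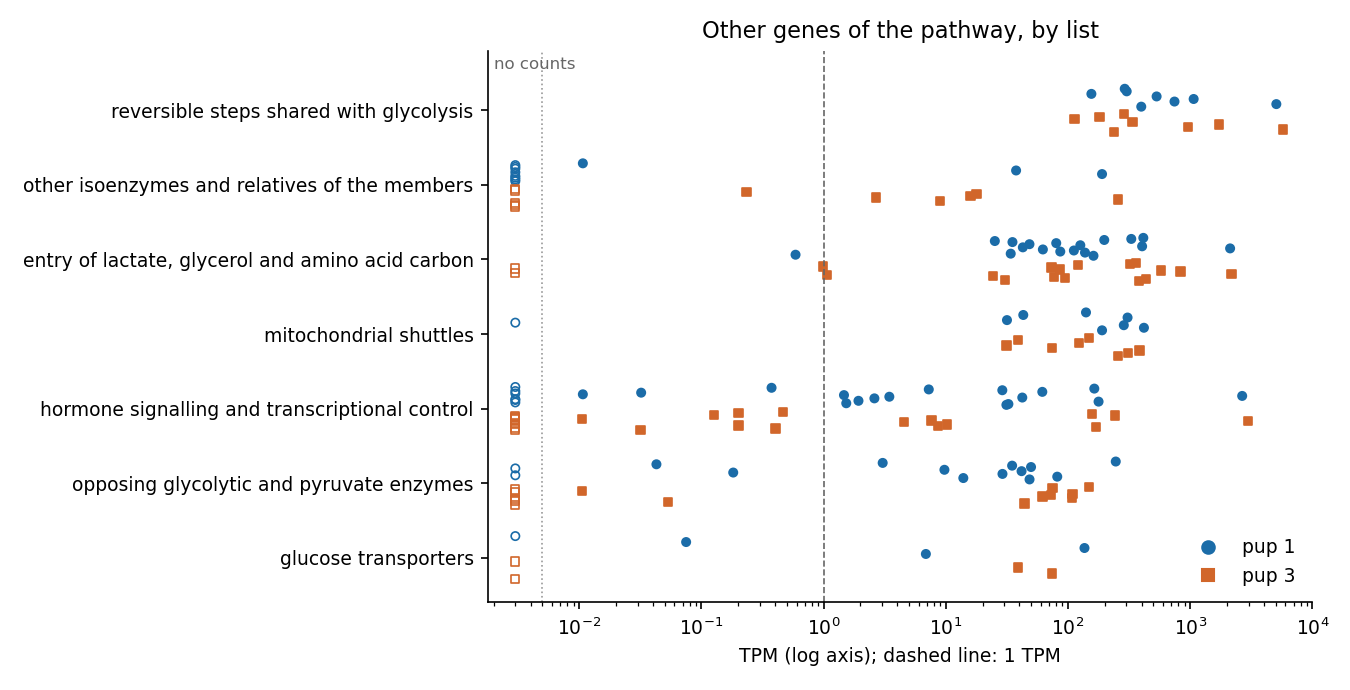
TPM on a log axis for every gene of the 7 pathway lists in pup 1 (circles) and pup 3 (squares), with open symbols left of the dotted line for no counts and a dashed line at 1 TPM. All 8 reversible enzymes lie above 100 TPM in both pups, while hormone signalling genes spread from no counts to above 1000 TPM.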

How the data were processed

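RNA was measured in 2 libraries of newborn liver, made with a SmartSeq protocol after mirVana extraction, per the labels' protocols. Per the deposited notes, values refer to mm10 with GENCODE M4. Aligner, quantification program and use of strand were not given in the sources used here. The authors deposited expected counts (estimated reads per gene or transcript), TPM over all features, isoform percent (a transcript's percent of its gene), and posterior mean TPM with credibility bounds, treated as a score.

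Spike-ins (97 features) were removed and TPM was rescaled. Coordinates, transcript types and coding lengths came from GENCODE M21 on GRCm38, by identifier without version, and all 9 members and 135 listed symbols matched. Of 21 member transcripts, 15 have the same length in M21. Upstream sequences came from RefSeq (GRCm38.p6).

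With 1 group and no contrast no test was run, and ratios between pups are descriptions. Floors (3 counts, 0.0547 CPM in pup 1 and 0.0862 CPM in pup 3) cover counting error only, since PCR copies are not independent molecules. Members, lists and motifs were chosen with earlier results of these data known. Named were all members, the 4 leading genes per list, all relatives of the members, transcripts of at least 10% of a gene and overlapping genes, and other names are marked as chosen after their values were seen, which also holds for the transcripts under 10% of a gene. Some genes of the lists are not reported here by name. Alternatives used edgeR 4.0.16 and DESeq2 1.42.0 factors on rounded expected counts, spike-in totals, CPM, other thresholds, thinning and each library alone. Tools were Python 3.11.15, pandas 2.3.3, scipy 1.17.1 and R 4.3.3.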

Additional observations from a re-analysis of the deposited data

How the results depend on the processing

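The summed share of the 9 genes, 0.561% of TPM, was 0.527% with spike-ins kept in the total, 0.599% of protein-coding TPM and 0.786% of counts (CPM), which weight long transcripts, and 0.549 to 0.574% with 1 library left out. The count detected in both libraries was 7 at thresholds of 0.1 and 10 TPM and in every other unit tried. With each library taken singly, 8 were detected. The count within 2-fold was 5 with TMM or DESeq2 factors, posterior mean TPM and both pseudocounts. It was 6 with spike-in totals, where the log2 ratio of Pcx was -0.88, and 6 in CPM, an alternative added after seeing the data, where that of Ppargc1a was 0.45. On the log2 scale, all ratios moved by -0.15 with TMM or DESeq2 factors and by 0.32 with spike-in totals, where Pck1 turned from 1.02-fold higher in pup 1 to 1.22-fold higher in pup 3. The 4 neighbouring pairs without overlap numbered 4 in each of 5 other units or totals. With pup 1 alone, Got1 and Slc37a4 stood above G6pc and Gpt above Ppargc1a. No overlap could be computed with 1 library left out. At 10 TPM, 4 genes of hormone signalling and 3 genes of the list of opposing enzymes and their regulators were detected in both libraries. No paired analysis was possible because the labels give a single group. With 2 libraries the SD rests on 1 difference, and genes under about 100 TPM were often missing from 1 library.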

Other observations

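Enzymes that run against gluconeogenesis or divert its pyruvate were also listed, together with some of their regulators, at lower summed levels. The list held inhibitors of these enzymes too, such as Pdk2 and Pdk4, so its sum is not that of opposing enzymes alone. Of 14 listed, 5 were detected in both libraries, 5 in pup 1 alone, 2 in pup 3 alone and 2 in neither. The 5 of 12 detected in either library are near the background of 46.3% over all features. The 14 summed to 558 TPM in pup 1 against 617 TPM in pup 3, against 5486 and 5735 TPM for the 9 gluconeogenic genes. The pyruvate kinase Pkm, the fetal form, led with 246 and 149 TPM. Pklr, the gene of the liver and red cell forms, had 3.04 TPM in pup 1 against 74.7 TPM in pup 3. Pfkfb1, the liver enzyme that sets fructose-2,6-bisphosphate, an inhibitor of Fbp1, had no counts in pup 1 and 109 TPM in pup 3. Pdha1, a subunit of pyruvate dehydrogenase, had 0.182 and 107 TPM, and its inhibiting kinases Pdk2 and Pdk4 had 41.6 and 61.8 TPM and 9.73 and 72.1 TPM. The liver phosphofructokinase Pfkl, opposing Fbp1, had 49.8 TPM in pup 1 but no counts in pup 3. Of these, Pklr, Pdk4 and Pfkl were picked with their values in view. Among the 12 with a mean of at least 10 expected counts, 5 were past 2-fold with pup 3 higher (background 36%). Another 5 were past it with pup 1 higher (background 38.5%). The median log2 ratio (pup 3 over pup 1) of the 12 was -0.08, with differences in both directions.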
